A study of Mus musculus with 2 samples.

Results

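The 10 genes described here encode secreted signals of inflammation and cell traffic. They are the chemokines Ccl2, Ccl3, Ccl4, Ccl11, Cxcl12 and Cx3cl1 and the cytokines Il6, Il1a, Il1b and Tnf. They were chosen by name, with earlier results of these data known, and all 10 have a row among the 29809 gene rows of the count tables. They were read in single cells from a dissected block of hypothalamus with the arcuate nucleus and the median eminence, the floor of the hypothalamus that senses hormones and nutrients of the blood. The library titled Irx3/5dHet, with the genotype given as Irx3/5+/- (Irx3 and Irx5 are Iroquois transcription factors), pooled 5 mice and gave 1484 used cells. The WT library pooled 7 wild-type mice and gave 2405 used cells. Mice of both pools were of the CD-1 strain and 7 to 8 weeks old, and live cells were sorted before Drop-seq, which reads the 3' ends of transcripts and counts each captured molecule by its unique molecular identifier (UMI). Nothing ties a cell to 1 mouse, so each genotype is 1 library. No difference between libraries has a replicate check, no p-value is given, and every interval below is a 95% interval for counting error only.

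Chemokines bind G protein-coupled receptors on leukocytes and neural cells and steer their movement. Ccl2 acts on the receptor Ccr2, Ccl11 on Ccr3, and Cxcl12 on Cxcr4 with Ackr3 as a scavenging receptor. Cx3cl1, or fractalkine, is a membrane-anchored chemokine that neurons present to the microglial receptor Cx3cr1. Il1a, Il1b, Tnf and Il6 are the classical pro-inflammatory cytokines, and in the brain the first 3 are made mainly by microglia and macrophages, the resident phagocytes.

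Several of the genes are neighbours in the mouse genome (build GRCm38, GENCODE annotation). Ccl3 (ENSMUSG00000000982, chr11:83647844-83649355, minus strand) and Ccl4 (ENSMUSG00000018930, chr11:83662584-83664683, plus strand) lie 13228 bases apart with 0 coding genes between them. On the same chromosome, Ccl2 (ENSMUSG00000035385, chr11:82035571-82037453, plus strand) and Ccl11 (ENSMUSG00000020676, chr11:82057823-82062955, plus strand) are 20369 bases apart, with Ccl7 between them. Il1a (ENSMUSG00000027399, chr2:129299610-129309972) and Il1b (ENSMUSG00000027398, chr2:129364570-129371139) are both on the minus strand, 54597 bases apart. The other 4 genes lie apart from these: Cxcl12 (ENSMUSG00000061353, chr6:117168535-117181367, plus strand), Cx3cl1 (ENSMUSG00000031778, chr8:94772009-94782427, plus strand), Il6 (ENSMUSG00000025746, chr5:30013114-30019981, plus strand) and Tnf (ENSMUSG00000024401, chr17:35199381-35202007, minus strand). A gene on the opposite strand overlaps Ccl2 (Gm17268), Il1a (Gm14023) and Il1b (Il1bos). No source used here says whether the authors' counting used the strand, so reads of these partners cannot be told apart from those of the 3 members. The same holds for reads that match both of a pair of similar genes, such as Ccl2 and Ccl12.

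The 250 bases before the start of transcription are shown for 4 genes that the microglia-like cells held together and for Il6, which they did not hold. The sequences are from RefSeq (GRCm38.p6), where 7 of the 10 genes had an entry, and each runs 5′ to 3′ on the gene's own strand. They span chr11:83649379-83649628 (minus strand), chr2:129309973-129310222 (minus), chr2:129371140-129371389 (minus), chr17:35202008-35202257 (minus) and chr5:30012864-30013113 (plus). Capitals mark TATAAA, the core of a TATA box, searched on the gene's strand, and GGGA followed by any 4 bases and CC, a core of sites for NF-kB, the transcription factor of inflammatory signalling, searched on both strands.

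Ccl3: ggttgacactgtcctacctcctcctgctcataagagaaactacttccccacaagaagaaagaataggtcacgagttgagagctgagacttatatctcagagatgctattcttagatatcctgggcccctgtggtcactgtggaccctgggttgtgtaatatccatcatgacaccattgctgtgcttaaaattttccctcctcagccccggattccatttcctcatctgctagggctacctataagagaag

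Il1a: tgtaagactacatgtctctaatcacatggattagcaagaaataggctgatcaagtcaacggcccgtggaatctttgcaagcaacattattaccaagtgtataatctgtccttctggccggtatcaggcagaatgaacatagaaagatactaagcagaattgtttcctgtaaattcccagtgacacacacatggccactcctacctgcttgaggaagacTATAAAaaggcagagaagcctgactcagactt

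Il1b: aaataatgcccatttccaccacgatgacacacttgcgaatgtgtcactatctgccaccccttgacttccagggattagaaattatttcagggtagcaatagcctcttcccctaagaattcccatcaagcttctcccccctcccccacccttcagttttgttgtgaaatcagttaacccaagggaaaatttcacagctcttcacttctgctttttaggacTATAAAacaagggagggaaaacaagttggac

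Tnf: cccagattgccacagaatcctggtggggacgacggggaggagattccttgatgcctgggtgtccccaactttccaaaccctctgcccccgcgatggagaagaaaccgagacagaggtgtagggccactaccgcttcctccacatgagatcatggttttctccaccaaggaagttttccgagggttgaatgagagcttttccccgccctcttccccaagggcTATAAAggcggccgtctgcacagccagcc

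Il6: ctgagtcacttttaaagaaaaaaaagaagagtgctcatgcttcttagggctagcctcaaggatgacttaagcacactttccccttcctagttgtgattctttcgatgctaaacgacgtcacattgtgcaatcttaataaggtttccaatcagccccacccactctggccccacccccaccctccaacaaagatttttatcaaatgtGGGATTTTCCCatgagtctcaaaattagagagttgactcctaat

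TATAAA starts 32 bases before the start of transcription in Il1a, 31 bases in Il1b and 29 bases in Tnf, and 7.59% of 32851 promoters hold it. The Il6 window holds GGGATTTTCC from 44 to 35 bases before the start and, overlapping it by all but 1 base, GGATTTTCCC, which is the same motif read on the other strand. Of all promoters, 17.6% hold this motif, and the Ccl3, Il1a, Il1b and Tnf windows do not. TGANTCA, the AP-1 motif, reads alike on both strands and is in 6.75% of promoters, among them Il1a, where it starts 12 bases before the start, and Il6, where it starts 249 bases before it. A match describes the letters only.

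Cells were used when they showed 300 or more genes and no more than 20% of their UMIs from mitochondrial genes. They held 2862026 UMIs in Irx3/5dHet and 4282490 UMIs in WT, with a median of 1160.5 and 1274 UMIs per cell. Irx3 was read with 15 UMIs in Irx3/5dHet and 31 UMIs in WT, a fold of 0.724 (0.363 to 1.38), and Irx5 with 6 and 16 UMIs, a fold of 0.561 (0.180 to 1.51). No source used here gives the deleted part, so these counts do not check the labels. The libraries shared 1 of the used barcodes. Many barcodes of a library differed only in their last base: 183 Irx3/5dHet barcodes fell into 52 such groups and 258 WT barcodes into 72. Pairs within a group were in the same cell class in 98.8% of 244 Irx3/5dHet pairs and 99.2% of 353 WT pairs, against 23.7% and 17.5% of any 2 barcodes of the library. Such barcodes may share a bead. They are counted as separate cells here, and joined counts are given beside results on single cells. Cells were clustered without the 10 genes, and clusters were named "like" a cell type from marker genes, so the classes are rebuilt and not the authors'.

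Of the 10 genes, 5 were held almost wholly by microglia-like cells. Of the others, summed over both libraries, Ccl11 and Cxcl12 had most UMIs in fibroblast-like cells. Cx3cl1 had most in neuron-like cells and Il6 in tanycyte-like cells, while Ccl2 had no such class. In WT alone, fibroblast-like cells held 47.3% of the Cxcl12 UMIs and 52% of the Ccl2 UMIs. Each of 9 genes had over 50% of its summed UMIs in 1 class. Of all 18971 genes with at least 10 UMIs, 54.5% did, so holding most UMIs in 1 class is not particular to these genes. The 10 genes were chosen with earlier results of these data known, so the next comparison is a description only. Microglia-like cells led 5 of the 10, whereas 1.16% of all genes had over 50% of their UMIs there. These cells were 45 of the Irx3/5dHet cells (3.03%, 2.22 to 4.04) and 104 of the WT cells (4.32%, 3.55 to 5.22), and all 12 microglia markers were detected in them in each library.

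**Figure D1:**
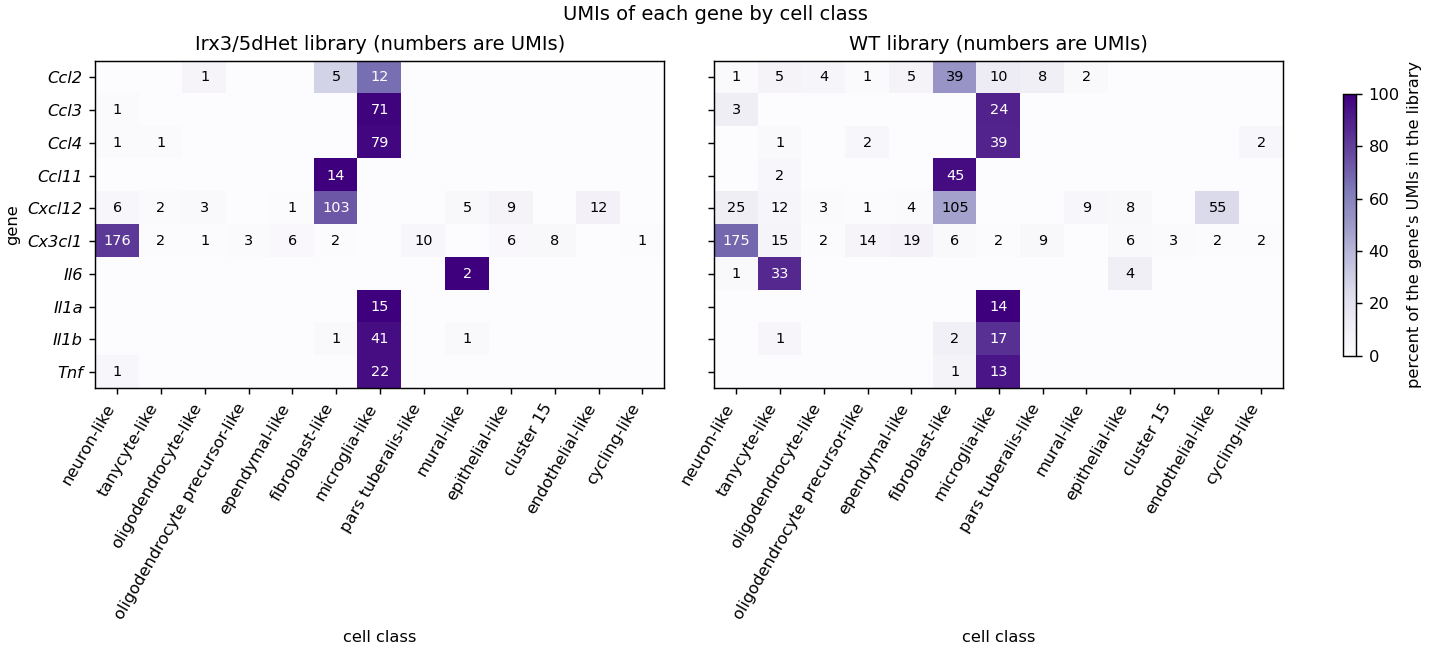
UMIs of each of the 10 genes (rows) in each cell class (columns) in the Irx3/5dHet library (left) and the WT library (right); the colour gives the percent of the gene's UMIs in that library. Ccl3, Ccl4, Il1a, Il1b and Tnf stand in the microglia-like column in both libraries, Ccl11 in the fibroblast-like column, and the 33 tanycyte-like UMIs of Il6 are in WT.

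Ccl3 and Ccl4, chemokines that attract leukocytes, had the most UMIs of the 10 genes in the microglia-like class. Of the 99 UMIs of Ccl3, 95 were in microglia-like cells (96.0%, 90.0 to 98.9), and the other 4 were single UMIs in neuron-like cells. Ccl4 had 118 of 125 UMIs there (94.4%, 88.8 to 97.7). Il1b, a secreted cytokine that needs cleavage by caspase-1, had 58 of 63 (92.1%, 82.4 to 97.4), and Tnf, which is shed from the membrane by Adam17, had 35 of 37 (94.6%, 81.8 to 99.3). All 29 UMIs of Il1a, the cytokine that acts without caspase-1 cleavage, were in microglia-like cells (88.1 to 100%). Oligodendrocyte-like cells, which should lack these genes, held 0 UMIs of all 5 in 125 Irx3/5dHet and 264 WT cells. That allows a share of cells of up to 2.4% in Irx3/5dHet and 1.14% in WT. The median depth of the oligodendrocyte-like cells was 1146 and 1303 UMIs, against 832 and 774 UMIs in the microglia-like cells.

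All 5 of these genes were higher per UMI in the Irx3/5dHet microglia-like cells than in the WT ones. Ccl3 had 71 UMIs in Irx3/5dHet and 24 in WT, which is 1459 counts per 1000000 UMIs of the class (CPM; 1140 to 1841) and 232 CPM (149 to 346). The fold was 6.28 (3.91 to 10.4). Ccl4 had 79 and 39 UMIs, or 1624 CPM (1286 to 2024) in Irx3/5dHet and 377 CPM (268 to 516) in WT, a fold of 4.30 (2.90 to 6.49). Both intervals of level lie wholly above those of WT. Il1b had 41 UMIs in Irx3/5dHet and 17 in WT, or 843 CPM (605 to 1143) and 164 CPM (95.8 to 263), a fold of 5.12 (2.85 to 9.62). Tnf had 22 and 13 UMIs, or 452 CPM (283 to 685) and 126 CPM (67.0 to 215), a fold of 3.59 (1.73 to 7.77). For Il1a, with 15 UMIs in Irx3/5dHet and 14 in WT, the levels were 308 CPM (173 to 509) and 135 CPM (74.1 to 227) and the fold 2.28 (1.02 to 5.09). The Il1a intervals of level overlap, and those of the other 4 genes do not. Of the 2986 genes with at least 10 UMIs in microglia-like cells, 31.5% were over 2-fold apart between the libraries, 11.4% higher in Irx3/5dHet and 20.1% lower, and the median log2 ratio was -0.14. All 5 members were among the higher ones, as was Ccl2, whose 12 Irx3/5dHet and 10 WT UMIs there gave a fold of 2.55 (1.01 to 6.59).

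**Figure D2:**
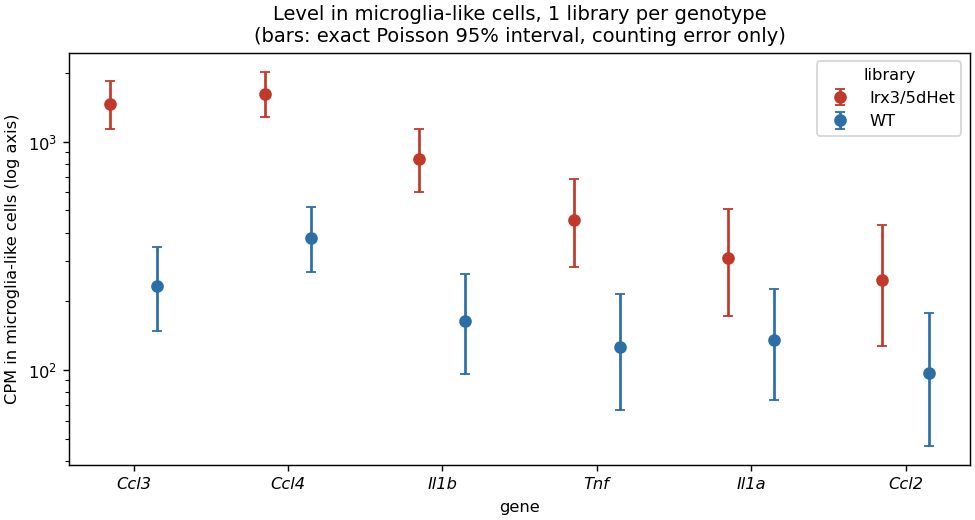
Level of 6 genes in microglia-like cells in CPM on a log axis, Irx3/5dHet (red, left of each pair) and WT (blue, right); points are sums over the class in 1 library and bars are exact Poisson 95% intervals. Each Irx3/5dHet point lies above its WT point, from 1459 against 232 CPM for Ccl3 to 247 against 96.8 CPM for Ccl2.

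Markers of border macrophages, the phagocytes of the meninges and vessel walls, moved with this result. Of the 10 border macrophage markers, 10 had UMIs in the Irx3/5dHet microglia-like cells and 6 in the WT ones, where Cd163, Lyve1, Mgl2 and Clec10a were at 0. Their summed level was 1912 CPM (93 UMIs in 19 of 45 cells) in Irx3/5dHet and 377 CPM (39 UMIs in 9 of 104 cells) in WT. The summed level of the microglia markers was 32065 CPM in Irx3/5dHet and 36295 CPM in WT. Of the 9 neutrophil and monocyte markers, 8 were at 0 in Irx3/5dHet and 7 in WT, with 11 and 18 UMIs in all. Lymphocyte markers held 1 and 3 UMIs. Of 14 immediate early and dissociation-linked genes, 8 were also over 2-fold higher in the Irx3/5dHet microglia-like cells, where 11.4% of all genes were.

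The result was therefore read again in the cells without a UMI of a border macrophage marker, 26 in Irx3/5dHet and 95 in WT, a choice made after the data were seen. In these cells Ccl3 had 21 UMIs in Irx3/5dHet and 21 in WT, or 1026 and 227 CPM, a fold of 4.53 (2.35 to 8.71). Ccl4 had 31 and 36 UMIs, a fold of 3.90 (2.33 to 6.48), and Il1b 13 and 11 UMIs, a fold of 5.35 (2.21 to 13.2). Il1a had 8 and 13 UMIs (2.78, 1.001 to 7.25) and Tnf 7 and 13 UMIs (2.44, 0.823 to 6.57). All 5 folds were above 2 there, and the Tnf interval includes equal levels. Of all genes, 11.4% were over 2-fold higher in the whole class, and the share in these fewer cells was not counted. Cx3cr1, the fractalkine receptor of microglia, had 4887 CPM in Irx3/5dHet and 4482 CPM in WT in the same cells (1.09, 0.868 to 1.36). A shallow macrophage can lack a marker UMI, so these cells need not all be microglia. The 19 Irx3/5dHet cells with a macrophage marker UMI held 50 of the 71 Ccl3 UMIs and 28 of the 41 Il1b UMIs, and the 9 WT cells with one held 3 of 24 and 6 of 17.

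**Figure D3:**
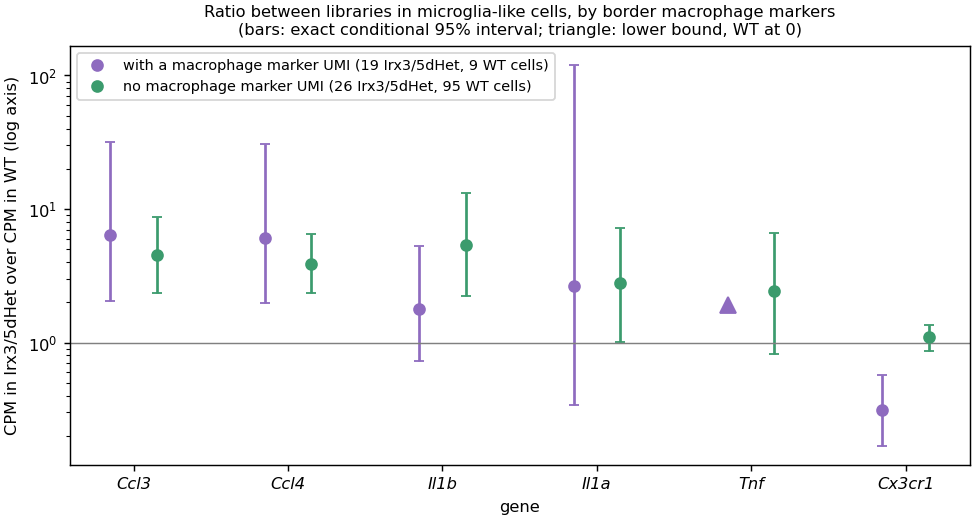
Irx3/5dHet level over WT level (log axis; the grey line marks equal levels) in microglia-like cells with a border macrophage marker UMI (purple; 19 Irx3/5dHet and 9 WT cells) and without one (green; 26 and 95 cells); bars are exact conditional 95% intervals and the triangle is a lower bound. Green points are above 2 for Ccl3, Ccl4, Il1b, Il1a and Tnf, and Cx3cr1 lies at 1.09.

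Each of the 5 genes was found in a larger share of the Irx3/5dHet than of the WT microglia-like cells, and several were at times in the same cell. At least 1 UMI of the 5 was in 30 of 45 Irx3/5dHet cells (66.7%, 51.0 to 80.0) and 30 of 104 WT cells (28.8%, 20.4 to 38.6). With barcodes that differ only in the last base joined, this was 27 of 42 in Irx3/5dHet and 30 of 101 in WT. UMIs of 3 or more of the 5 genes were in 13 Irx3/5dHet cells, which held 75.4% of the UMIs of the 5 genes, and in 4 WT cells, which held 53.3%. Ccl3 was in 17 of 45 Irx3/5dHet cells (37.8%, 23.8 to 53.5) and 6 of 104 WT cells (5.77%, 2.15 to 12.1). Of these Ccl3 cells, 14 of 17 in Irx3/5dHet and 6 of 6 in WT also held Ccl4, against 2 of 28 and 7 of 98 of the cells without Ccl3. Il1b was in 3 of 11 Irx3/5dHet and 3 of 12 WT cells with Il1a, against 10 of 34 and 5 of 92 cells without it. The Ccl3 cells were deeper, with a median of 1289 UMIs in Irx3/5dHet and 1714.5 in WT, against 769.5 and 735 for the cells without it. When each cell was thinned to 500 UMIs, which left out 6 Irx3/5dHet and 12 WT cells, Ccl3 was in 17.9% of 39 Irx3/5dHet cells and 2.17% of 92 WT cells. Il1b was then in 25.6% and 6.52%, and Ccl4 in 20.5% and 7.61%. Tnf was in 17.9% of the thinned Irx3/5dHet cells (7.54 to 33.5) and 0 of 92 WT cells, which allows up to 3.26% for counting error. The thinning was 1 random draw, so another draw could give other counts, and that limit does not cover this. Unthinned, Tnf was in 24.4% of Irx3/5dHet and 8.65% of WT cells. For Il1a the thinned shares, 10.3% (2.87 to 24.2) and 7.61% (3.11 to 15.1), had overlapping intervals.

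Single cells held large parts of these counts. The Irx3/5dHet cell with the most Ccl3 had 16 of the 72 UMIs of that library, and the WT cell had 14 of 27 (51.9%, 31.9 to 71.3). Of the genes with at least 10 UMIs in a library, 0.299% in Irx3/5dHet and 0.121% in WT had over 50% of them in 1 cell. Over both libraries together, 0 of the 10 members did, and 0.121% of all genes did. Without the highest cell of each library, the microglia-like counts of Ccl3 were 55 and 10. The log2 ratio of Ccl3 was then 3.57, against 2.65 with them. The highest cell had 20 of 81 Ccl4 UMIs in Irx3/5dHet and 10 of 44 in WT, and 10 of 43 Il1b UMIs in Irx3/5dHet and 4 of 20 in WT. Il1a was held thinly, with at most 3 UMIs in any cell of either library. One group of 4 Irx3/5dHet microglia-like barcodes that differ in the last base held 12 Ccl3, 21 Ccl4, 3 Il1a, 1 Il1b and 2 Tnf UMIs. Outside it the Irx3/5dHet microglia-like cells had 59 Ccl3 UMIs in 13 cells and 58 Ccl4 UMIs in 12 cells. The 4 WT microglia-like barcodes of such a group held 0 UMIs of the 5 genes. With all such barcodes left out, the log2 ratios in microglia-like cells were 2.39 for Ccl3, 1.66 for Ccl4, 2.33 for Il1b, 1.71 for Tnf and 0.87 for Il1a, so Il1a was then under 2-fold.

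**Figure D4:**
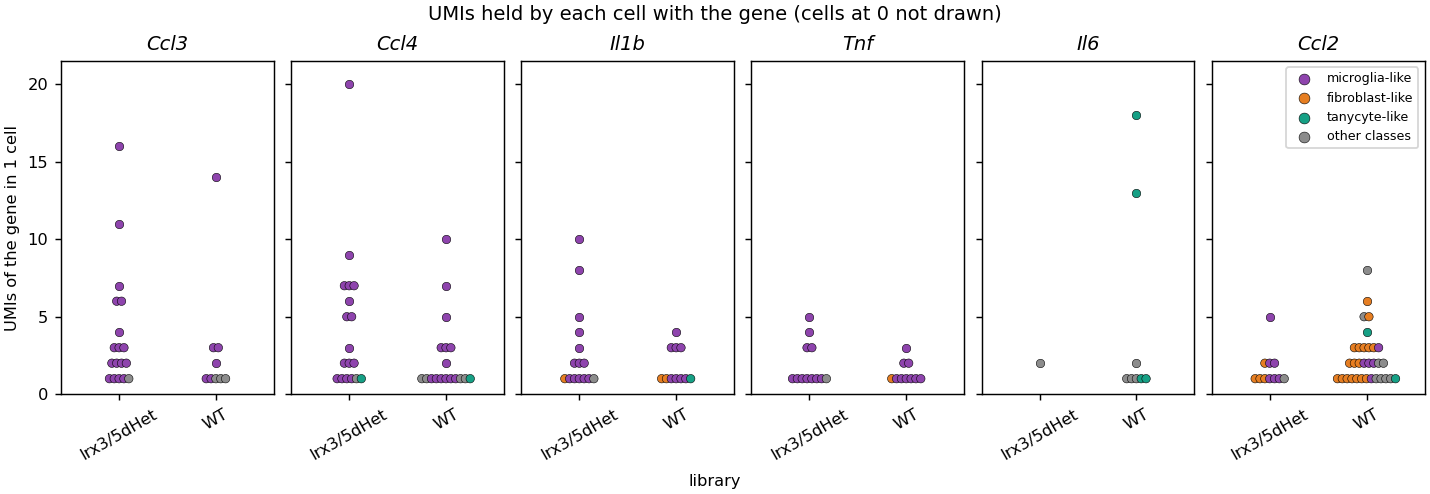
UMIs of 6 genes in each cell that held them, Irx3/5dHet left and WT right in each panel; a point is 1 cell, coloured by class. The top Ccl3 cells hold 16 UMIs in Irx3/5dHet and 14 in WT, and the top Il6 cells hold 18 and 13 UMIs, both tanycyte-like and both WT.

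Il6, the cytokine that signals through the shared receptor subunit Il6st, was rare and lay outside the microglia-like cells. It had 2 UMIs in Irx3/5dHet, both in 1 mural-like cell, and 38 UMIs in 8 WT cells. Of the 40 UMIs, 33 (82.5%, 67.2 to 92.7) were in tanycyte-like cells, the glia that line the floor of the third ventricle, and all 33 were in 4 of the 81 WT cells of tanycyte-like cluster 12, led by Scn7a and including Dio2 and Col25a1. Of these cells, 1 held 18 UMIs and 1 held 13 UMIs, which together were 77.5% of all Il6 UMIs, and the remaining tanycyte-like cells held 2. The 150 Irx3/5dHet tanycyte-like cells, 49 of them in cluster 12, held 0 UMIs. With 3 counts set in place of that 0, Il6 was 3.28-fold lower in Irx3/5dHet (16.4 CPM, against 54.0 CPM in WT). This is not a limit, since the exact intervals reach up to a fold of 0.397 and 20.2 CPM in Irx3/5dHet. Of the genes with at least 10 UMIs in tanycyte-like cells, 22% were over 2-fold apart and 13.8% lower in Irx3/5dHet. In cells, this is 0 of 150, which allows up to 2%, against 4 of 371 (1.08%, 0.295 to 2.74), so a difference in the share of cells was not detectable at this depth. With the highest cell of each library left out, the log2 ratio with that floor of 3 counts moved to -0.59, from -1.71, and no longer reached 2-fold. The 4 UMIs in WT epithelial-like cells were spread over 3 cells, and the last WT UMI was in a neuron-like cell. The other tanycyte-like cluster, with 391 cells, also met the naming rule for astrocytes. The tanycyte-like class may therefore include astrocytes.

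Ccl11 and Cxcl12 were held mainly by stromal cells. Ccl11, or eotaxin, which attracts eosinophils, had 59 of 61 UMIs (96.7%, 88.7 to 99.6) in the fibroblast-like cells, which express Dcn, Lum and collagen genes. It was found in 10 of 123 Irx3/5dHet fibroblast-like cells (14 UMIs, at most 3 in a cell) and in 31 of 155 WT ones (45 UMIs, at most 4). Its level was 106 CPM (57.7 to 177) in Irx3/5dHet and 244 CPM (178 to 326) in WT, a fold of 0.433 (0.220 to 0.804). The intervals of level do not overlap. Of the genes with at least 10 UMIs in fibroblast-like cells, 24.5% were over 2-fold apart, with 10.6% of all tested genes higher and 13.9% lower in Irx3/5dHet. Thinned to 500 UMIs, 4.42% of 113 Irx3/5dHet cells (1.45 to 10.02) and 12.4% of 145 WT cells (7.53 to 18.9) held Ccl11, and these intervals overlap.

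Cxcl12, which retains stem cells and leukocytes and guides neurons, had 141 UMIs in Irx3/5dHet and 222 in WT, spread over 9 classes. Fibroblast-like cells held 208 of the 363 UMIs (57.3%, 52.0 to 62.4), 73.0% in Irx3/5dHet and 47.3% in WT, and endothelial-like cells 67. Per UMI of the class the order was the reverse. Endothelial-like cells had 1046 CPM (540 to 1827; 12 UMIs in 13 cells) in Irx3/5dHet and 1500 CPM (1130 to 1952; 55 UMIs in 40 cells) in WT. Fibroblast-like cells had 776 CPM (634 to 942) and 568 CPM (465 to 688). Between these libraries the endothelial-like fold was 0.697 (0.340 to 1.32), where 34.2% of the genes with at least 10 UMIs in the class were over 2-fold apart. In WT the intervals of the endothelial-like and fibroblast-like classes were apart, and in Irx3/5dHet they overlapped. Epithelial-like cells had 176 CPM in Irx3/5dHet and 109 CPM in WT, and mural-like cells 104 and 108 CPM. In fibroblast-like cells the fold between libraries was 1.37 (1.03 to 1.81), with 103 UMIs in 59 of 123 Irx3/5dHet cells and 105 UMIs in 65 of 155 WT cells. Thinned to 500 UMIs, 30.1% of Irx3/5dHet and 28.3% of WT fibroblast-like cells held it, and the log2 ratio was 0.02. Oligodendrocyte-like cells, at 1.6% and 1.14% before thinning, held it in far fewer. Over all cells the fold was 0.95 (0.764 to 1.18). Neuron-like cells held 31 UMIs, in 5 of 665 Irx3/5dHet and 15 of 814 WT cells, and the Irx3/5dHet share is below that of the oligodendrocyte-like cells. Of these UMIs, 13 were in 6 of the 130 WT cells of cluster 8, which was led by Vip and also by Prok2, Nms and Rora, and the 67 Irx3/5dHet cells of that cluster held 0.

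Ccl2, which recruits monocytes through Ccr2, was the gene without a class that held most of it over both libraries together. Within a library such a class was seen, but not the same one. In WT, fibroblast-like cells held 52% of its 75 UMIs (40.2 to 63.7). In Irx3/5dHet they held 27.8% (9.69 to 53.5), and microglia-like cells held 12 of the 18 UMIs. Fibroblast-like cells had 44 of 93 UMIs (47.3%, 36.9 to 57.9), microglia-like cells 22, and 7 other classes the rest. In fibroblast-like cells it had 5 UMIs in 4 Irx3/5dHet cells and 39 UMIs in 17 WT cells. The levels were 37.7 CPM (12.2 to 87.9) and 211 CPM (150 to 289), a fold of 0.179 (0.0549 to 0.453), and the intervals do not overlap. In microglia-like cells the fold was above 1, as given above, with all 12 Irx3/5dHet UMIs in cells with a border macrophage marker UMI. In the microglia-like cells with such a UMI the fold was 1.53 (0.412 to 8.43), with 12 UMIs in Irx3/5dHet and 3 in WT. In those without one Ccl2 had 0 UMIs in Irx3/5dHet and 7 in WT. The cell with the most Ccl2 was a WT pars tuberalis-like cell with 8 UMIs, and a WT ependymal-like cell had 5 and a WT tanycyte-like cell 4. Oligodendrocyte-like cells also held Ccl2, 1 UMI in Irx3/5dHet and 4 in WT, in 0.800% and 1.14% of cells, against 3.25% and 10.97% of fibroblast-like cells. A share of cells at or below that of the oligodendrocyte-like cells, which should lack these genes, is not told apart from background by the share alone. In WT this holds for the pars tuberalis-like (1 of 90), ependymal-like (1 of 181) and tanycyte-like cells (2 of 371). The share does not weigh the 8, 5 and 4 UMIs that single cells of these classes held.

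In the fibroblast-like cells the 3 chemokines were partly held by the same cells. Ccl11 and Cxcl12 were both in 6 of 10 Ccl11 cells in Irx3/5dHet and in 15 of 31 in WT. Ccl2 and Ccl11 were both in 1 Irx3/5dHet cell and 5 WT cells.

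**Figure D5:**
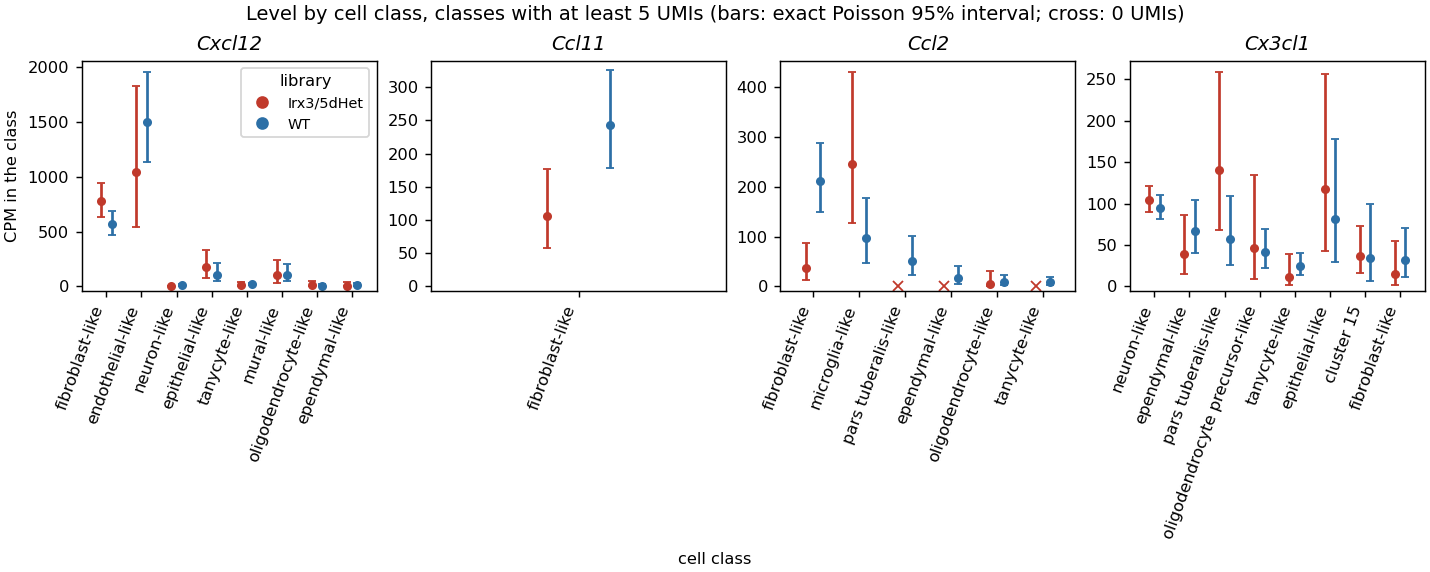
Level in CPM of Cxcl12, Ccl11, Ccl2 and Cx3cl1 in each class with at least 5 UMIs of the gene, Irx3/5dHet (red, left) and WT (blue, right); bars are exact Poisson 95% intervals and crosses mark classes with 0 UMIs. Cxcl12 is highest in endothelial-like cells (1046 and 1500 CPM), and Ccl2 in fibroblast-like cells lies at 37.7 CPM in Irx3/5dHet and 211 CPM in WT.

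Cx3cl1 was the most abundant of the 10 genes by UMIs and was spread thinly over many cells. Neuron-like cells held 351 of 470 UMIs (74.7%, 70.5 to 78.6), in 135 of 665 Irx3/5dHet cells and 135 of 814 WT cells, and at most 3 UMIs were in any cell. The level was 104 CPM (89.2 to 121) in Irx3/5dHet and 94.9 CPM (81.3 to 110) in WT. Neuron-like cluster 17, led by Tac2 and Kiss1, had a marker of another class and none of its own among its top genes, and without it the fold was 1.11 (0.890 to 1.38), with 171 UMIs in each library. Of the genes with at least 10 UMIs in neuron-like cells, 16.2% were over 2-fold apart. At 500 UMIs per cell, 5.03% of Irx3/5dHet and 5.06% of WT neuron-like cells held Cx3cl1, and before thinning 20.3% and 16.6% did, against 0.8% and 0.758% of oligodendrocyte-like cells. Among neuron-like clusters the level was highest in cluster 7, shallow cells led by Kcnq1ot1, with 241 CPM (132 to 405) in Irx3/5dHet and 173 CPM (107 to 265) in WT. It was 162 and 156 CPM in cluster 13, led by Foxb1, and 77.1 and 38.7 CPM in cluster 8. Outside neurons, pars tuberalis-like cells had 141 CPM (67.5 to 259) in Irx3/5dHet and 57.7 CPM (26.4 to 109) in WT, a fold of 2.44 (0.891 to 6.79), where 25.8% of the genes tested in the class were over 2-fold apart. Ependymal-like cells had 39.7 and 67.1 CPM. Microglia-like cells, which carry the receptor, held 0 and 2 UMIs. Over all cells Cx3cl1 had 215 and 255 UMIs, a fold of 1.26 (1.05 to 1.52), where neuron-like cells were 44.8% of the Irx3/5dHet cells and 33.8% of the WT cells.

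Over all used cells, 7 of the 10 genes were over 2-fold apart, 4 higher and 3 lower in Irx3/5dHet. Among all 18971 genes with at least 10 UMIs, 17.7% were over 2-fold apart, 4.14% higher and 13.5% lower, and the median log2 ratio was -0.10. Ccl3 had 72 UMIs in Irx3/5dHet and 27 in WT (fold 3.99, 2.53 to 6.46), Ccl4 81 and 44 (2.75, 1.89 to 4.07), Il1b 43 and 20 (3.22, 1.85 to 5.77) and Tnf 23 and 14 (2.46, 1.21 to 5.17). The 3 lower genes were Ccl2 with 18 UMIs in Irx3/5dHet and 75 in WT (0.359, 0.202 to 0.607), Ccl11 with 14 and 47 (0.446, 0.227 to 0.823) and Il6 with 2 and 38 (0.0788, 0.00920 to 0.305). Il1a was at 1.603 (0.721 to 3.58). Within the class that leads each gene, 8 of the 10 were over 2-fold apart, 5 higher and 3 lower. The share of all genes over 2-fold apart within a class was 31.5% in microglia-like, 24.5% in fibroblast-like, 22% in tanycyte-like and 16.2% in neuron-like cells. Without the 19 Irx3/5dHet and 9 WT microglia-like cells with a border macrophage marker UMI, 3 of the 10 were over 2-fold apart over all cells, and 8 of the 10 still were within their leading class. The all-cell log2 ratio of Ccl3 was then 0.47 and that of Ccl4 0.28. Without these cells the share of all genes past 2-fold was not counted. In a sum over cells, fewer cells of a class and less RNA per cell cannot be told apart.

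Other chemokines of the same pathway were read from lists of related genes. Of 14 other CXC and XC chemokines, 7 had at least 10 UMIs over all cells. Among these, 2 were over 2-fold higher and 0 lower in Irx3/5dHet, where 4.14% of all genes were higher and 13.5% lower. In microglia-like cells all 5 measured were higher, with a median log2 ratio of 3.71. Of them, 4 were over 2-fold higher, where 11.4% of all genes were. Cxcl2, a neutrophil attractant, had 162 UMIs in Irx3/5dHet and 26 in WT there (fold 13.2, 8.71 to 20.9). Cxcl1, which shares its receptor Cxcr2, had 74 and 12 there (13.1, 7.07 to 26.5). Over all cells the Cxcl1 fold was 1.54 (1.15 to 2.07). Fibroblast-like cells held 62 of the 193 Cxcl1 UMIs, 17 in Irx3/5dHet and 45 in WT. The highest cell held 41 of the 195 Cxcl2 UMIs. In the microglia-like cells without a macrophage marker UMI, Cxcl2 had 29 UMIs in Irx3/5dHet and 11 in WT (11.9, 5.79 to 26.5), and Cxcl1 19 and 11 (7.82, 3.53 to 18.2). Cxcl10, an interferon-induced ligand, had 9 and 1 UMIs in microglia-like cells (19.1, 2.65 to 838). Cxcl16 was led by fibroblast-like cells (59.8% of 87 UMIs) and Cxcl14 by pars tuberalis-like cells (41.3% of 390 UMIs), with all-cell folds of 1.40 and 0.665.

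Of 17 other CC chemokines, 5 had at least 10 UMIs, and 0 were over 2-fold apart over all cells, where 17.7% of all genes were. Ccl12, a mouse monocyte attractant close to Ccl2, had 89.2% of its 37 UMIs in microglia-like cells, with 18 UMIs in Irx3/5dHet and 15 in WT (fold 2.55, 1.21 to 5.43). Ccl6 had 12 and 12 UMIs there (2.12, 0.873 to 5.17). Ccl27a, Ccl25 and Ccl17 were led by neuron-like cells, with 928, 108 and 45 UMIs and all-cell folds of 1.66, 1.20 and 1.43.

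Over all cells, most chemokine receptors that could be measured were lower in Irx3/5dHet. Of 21 chemokine receptor genes, 10 had at least 10 UMIs, 1 over 2-fold higher and 6 lower in Irx3/5dHet, where 4.14% of all genes were higher and 13.5% lower, and their median log2 ratio was -1.06. Microglia-like cells, a smaller share of the Irx3/5dHet cells, led 6 of them. Within these cells 2 of 7 receptors were over 2-fold higher and 1 lower, against 11.4% and 20.1% of all genes there, with a median of -0.65. Cx3cr1 had 122 UMIs in Irx3/5dHet and 442 in WT in these cells (fold 0.586, 0.476 to 0.718), and its fold was 0.311 (0.169 to 0.567) in the cells with a macrophage marker UMI and 1.09 in those without, as given above. Ccrl2, an atypical receptor that binds chemerin, was higher with 57 and 27 UMIs (4.48, 2.79 to 7.38). For Cxcl12, Cxcr4 had 53 UMIs over all cells, of which 15 were in microglia-like cells (8 in Irx3/5dHet and 7 in WT; 2.43, 0.769 to 7.86). Ackr3 had 98 UMIs, led by mural-like cells (34.7%), with 16 in Irx3/5dHet and 82 in WT, a fold of 0.292.

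Receptors of the cytokines were spread over many classes. Of 13 such genes, 11 had at least 10 UMIs, 0 over 2-fold higher and 2 lower. Over all cells, 4.14% of all genes were higher and 13.5% lower. Il6st had 326 UMIs with at most 28.2% in a class (neuron-like cells), and its all-cell fold was 0.701. Il1rap, the accessory chain of the interleukin 1 receptor, was led by oligodendrocyte-like cells (46.8% of 188 UMIs, fold 0.635), and Tnfrsf1a, the main Tnf receptor, by tanycyte-like cells (26.5% of 113 UMIs, 0.591). The signalling genes Irak1 and Traf6 had 580 and 109 UMIs and all-cell folds of 0.894 and 1.32. Of 8 genes of release and cleavage, 7 had at least 10 UMIs and 1 was over 2-fold apart, as were 17.7% of all genes. This was the inflammasome adaptor Pycard, with 19 UMIs in Irx3/5dHet and 67 in WT (0.424). The sheddases Adam10 and Adam17 had folds of 1.05 and 0.788, Gsdmd, which forms pores, 0.968, and Casp4 1.22. Of 25 other cytokines, 14 had at least 10 UMIs, 0 over 2-fold higher and 3 lower, against the same 4.14% and 13.5% of all genes. For 1 of the 3, with 10 UMIs in WT, the Irx3/5dHet count was 0 and was set to the floor of 3. Mif (4146 UMIs, led by neuron-like cells), Il33 (433, fibroblast-like cells), Tgfb2 (290, tanycyte-like cells), Il18 (242, oligodendrocyte-like cells) and Csf1 (195, oligodendrocyte-like cells) were the most abundant, with all-cell folds of 1.42, 1.11, 0.776, 0.597 and 0.935.

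Genes of NF-kB feedback and of the early response to stress or dissociation were read in the microglia-like cells too, where 11.4% of all genes were over 2-fold higher and 20.1% lower. Of 15 NF-kB genes, 9 had at least 10 UMIs there, 3 over 2-fold higher and 1 lower, and the median log2 ratio was 0.86. Nfkbiz had 34 UMIs in Irx3/5dHet and 17 in WT (fold 4.25, 2.31 to 8.11), Zfp36, which destabilises cytokine mRNAs, 49 and 32 (3.25, 2.04 to 5.25), and Nfkbia, the inhibitor that NF-kB itself induces, 167 and 189 (1.88, 1.52 to 2.32). Ier3 was at 1.13 (0.672 to 1.85). Nfkbib, with 5 UMIs in these cells, was at 1.08 over all cells. Of 16 immediate early and dissociation-linked genes, 14 were measured in microglia-like cells, 8 over 2-fold higher and 0 lower, and the median log2 ratio was 1.07. Over all cells, 0 of the 16 were over 2-fold higher and 1 lower, and the median was -0.67. Hspa1a had 215 and 165 UMIs in microglia-like cells (2.77, 2.25 to 3.41) and an all-cell fold of 0.561, and Fos 29 and 29 UMIs (2.12, 1.22 to 3.68) and an all-cell fold of 0.6003. Jun, Egr1 and Jund were at 0.728, 1.11 and 1.24 in microglia-like cells. The part of these genes in the members' values was not tested.

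The genes most like each member over classes and libraries were named as a description. Likeness was Pearson's r of log2(CPM + 10) over 21 points, each a class with at least 20 cells in a library. The points share libraries and depth. Ccl3, Ccl4, Tnf and Il1b lay almost wholly in microglia-like cells, so their r rests mostly on the 1 microglia-like point of each library. Likewise, the r of Ccl11 rests mostly on the 1 fibroblast-like point of each library. For Il6 few points had UMIs, and 2 cells held 31 of the 33 UMIs of the WT tanycyte-like point. A high r for these genes need not mean that the same cells hold both genes. For Ccl3 they were Mrc1 (r = 0.9998), Cxcl2, Bcl2a1b, Hcls1 and Nfkbid (0.989). For Ccl4 they were Bcl2a1b (0.994), Mrc1, Hcls1, H2-Ab1 and Il10ra (0.987). For Tnf they were Cxcl2 (0.995), Mrc1, Bcl2a1b, Hcls1 and H2-Aa (0.986), and for Il1b Cxcl2 (0.967), Mrc1, Bcl2a1b, Hcls1 and Tnfaip3 (0.952). Mrc1, the mannose receptor, is itself one of the border macrophage markers and had 36 UMIs in all. For Ccl11 they were Scara5 (0.995), Ptgfr, Itih2, Mfap4 and Rxfp3 (0.970). For Cxcl12 they were Ltbp4 (0.952), Cgnl1, Lox, Id3 and Col8a1 (0.897). For Ccl2 they were Olfml3 (0.838), Abca9, Plekho2, Unc93b1 and Rab7b (0.792). For Cx3cl1 they were Prkci (0.842), Tshz2, Fnbp1l, Tusc3 and Ly6h (0.801). For Il6 r was at most 0.766, for Gm20257, before Il2, Gm3943, Gm12117 and Rpl30-ps5 (0.689). Il1a had too few UMIs for this.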

How the data were processed

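Drop-seq libraries of pooled Irx3/5dHet and WT mice were analysed, 1 per genotype. The deposited tables hold whole-number counts of UMIs per gene and cell barcode. A merged table that the authors deposited holds the natural log of 1 plus depth-scaled UMIs, as its values show, and only its barcodes served, as an alternative set of cells. Per the submitters' processing notes, mm10 was the build, and STAR 2.6.0b, Picard, bcl2fastq and Seurat 3 were among the tools. The sources used here give no annotation, strand setting or rule for reads that match several genes.

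Of 1800 Irx3/5dHet and 2800 WT barcodes, 316 and 395 were left out for under 300 genes or over 20% mitochondrial UMIs. Scrublet called 17 of 3889 cells doublets (0.437%, under the 5% it was set to expect), and they were kept. Both libraries were clustered together (scanpy 1.11.5, 2000 variable genes without the members and their pathway lists, 30 components, 20 neighbours, Leiden resolution 1, leidenalg 0.10.2). A class name needed 3 markers in 10% of the cells at over 2 times the median cluster, and a mean log2 level of all its markers at least 2 above that median. The unnamed cluster 15 was led by Npy and Agrp.

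UMIs were summed per class and library, and folds are Irx3/5dHet over WT CPM for genes with at least 10 UMIs. Intervals are exact Poisson for levels, exact Clopper-Pearson for shares and exact conditional binomial for folds (scipy 1.17.1). A library at 0 was set to a floor of 3 counts when a fold was taken. A count past 2-fold is a rule of size, not a test. The scripts were tested on simulated data. Named are all members, of each pathway list the 5 genes with most UMIs, and the 5 genes most like each member. One gene that this rule names is not reported here. Members and lists were chosen with earlier results of these data known. Alternatives were other cell filters, barcodes, clusterings, minimum counts, thinning and leaving out the highest cell or macrophage-marked cells.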

Additional observations from a re-analysis of the deposited data

Results flagged for a closer look

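Ccl2 went opposite ways in its 2 main classes. Its fold Irx3/5dHet over WT was 2.55 in microglia-like cells and 0.179 in fibroblast-like cells, and both intervals left out equal levels. In microglia-like cells with a border macrophage marker UMI (19 in Irx3/5dHet, 9 in WT) the Ccl2 fold was 1.53 (0.412 to 8.43). In those without one Ccl2 had 0 UMIs in Irx3/5dHet and 7 in WT, so the 2.55 holds only for the class as a whole. Cxcl12 had folds of 1.37 in fibroblast-like cells and 0.201 in neuron-like cells (4 UMIs in Irx3/5dHet and 22 in WT, without cluster 17), again with intervals on opposite sides of 1. The Irx3/5dHet neuron-like cells held Cxcl12 in 5 of 665, a share below the 1.6% of oligodendrocyte-like cells and so not told apart from background. With 1 library per genotype, neither difference between classes was tested.

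Barcodes left out by the cell filters, which enter no comparison, also held UMIs of some members above the 3 counts that a count of 0 allows. Ccl2 had 6 UMIs in 4 left-out Irx3/5dHet barcodes and 7 UMIs in 3 left-out WT barcodes. Ccl4 had 10 UMIs in 2 left-out WT barcodes, 8 of them in 1, and 0 in the Irx3/5dHet ones. Cxcl12 had 16 UMIs in Irx3/5dHet and 5 in WT, and Cx3cl1 had 15 and 11.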

How the results depend on the processing

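For the 4 counts of members, 43 alternative values were within 1.5 times the reported count and 1 was not. This was the number over 2-fold apart over all cells, which was 3 in place of 7 without the microglia-like cells that held a border macrophage marker UMI. The same setting turned the all-cell log2 ratio of Tnf to -0.22, while in microglia-like cells it was 1.28. That setting, chosen after seeing the data like the joining of barcodes, leaves out 19 of 45 Irx3/5dHet cells and 9 of 104 WT cells of the class. Of the alternative log2 ratios of single members, 192 lay within the counting interval of the reported value, 15 outside it, and 1, Tnf as given, changed sign from a value whose interval left out equal levels. Ratios whose interval held equal levels also changed sign: over all cells Il1a to -0.29 when thinned and -0.11 without the macrophage-marked cells and Cxcl12 to 0.05 in cells with at least 500 genes, and in neuron-like cells Cx3cl1 to -0.01 when thinned. The reported leading class of each member was also found at Leiden resolutions 0.5 and 2 and with the members kept among the variable genes. At resolution 0.5, though, a cluster of 458 cells led by Crym was named astrocyte-like, and 146 cells were tanycyte-like. The Il6 log2 ratio in tanycyte-like cells was then -2.29. In microglia-like cells the log2 ratio of Ccl3 ranged over the alternatives between 2.18 and 3.77, Ccl4 between 1.64 and 3.01, Il1b between 2.02 and 2.84, Tnf between 1.28 and 2.98 and Il1a between 0.24 and 1.48. The 2.98 of Tnf is from the thinned cells, where WT was at 0 and was set to the floor of 3 counts. In fibroblast-like cells Ccl2 ranged between -3.03 and -2.04 and Ccl11 between -1.78 and -1.18. Depth limits Il6, Il1a and Tnf, with 40, 29 and 37 UMIs. No paired analysis was possible because each genotype is 1 library, and no library can be left out for the same reason.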

Other observations

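Ifng, the interferon made by lymphocytes, was named here after its values were seen. It had 25 UMIs, 10 in Irx3/5dHet and 15 in WT, of which 72.0% were in ependymal-like cells (6 in Irx3/5dHet and 12 in WT) and 0 in microglia-like cells, with at most 3 in a cell.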
